A study of Mus musculus with 69 samples.

Results

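The p53 targets described here are genes that the transcription factor p53 is known to switch on, followed in the liver of mice given acetaminophen (APAP), isoniazid (INZ) or paraquat (PQ). The list named 10 genes, Cdkn1a, Mdm2, Ccng1, Bax, Phlda3, Btg2, Trp53inp1, Sesn1, Eda2r and Gadd45a, and each was matched by gene symbol to the 17306 probe sets of the array table, of which 16464 carried 1 symbol. A probe set was found for 9 of the 10 genes, and Bax, an activator of mitochondrial apoptosis, is not analysed here. The genes were picked by name, at a time when earlier results of these data were known.

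p53 is held at a low level by Mdm2, a ubiquitin ligase that is itself a p53 target, and it accumulates when DNA is damaged or the cell is otherwise stressed. Its targets then act on separate fates: Cdkn1a (p21) blocks cyclin-dependent kinases and stops the cell cycle, Btg2 and Gadd45a restrain proliferation, Phlda3 and Eda2r favour cell death, and Sesn1 limits mTORC1 signalling and oxidative stress. In liver, p21 is known as a brake on hepatocyte division after injury, and its gene also answers p53-independent signals.

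All mice were 10-week-old C57BL/6 males of 21 to 27 g, dosed a single time by oral gavage, and total RNA came from the middle of the left lateral lobe of the liver. The doses of APAP, a painkiller that is toxic to liver at excess, were 168.75, 225 and 300 mg/kg. Those of INZ, a tuberculosis drug, were 22, 44 and 88 mg/kg, and those of PQ, a redox-cycling herbicide, 12.5, 25 and 50 mg/kg. They are called the low, medium and high doses. Livers were taken 1 day after every dose, and 2 days after the high doses too, with vehicle mice for each day. There were 14 groups of 5 mice and arrays, but only 4 for the medium dose of PQ, hence 69 arrays (70 in the design text). The vehicle mice were labelled for APAP and served all 3 compounds, so the comparisons of a day share their controls.

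The region just before the start of each gene is shown where its letters bear on p53, which binds a pair of 10-base half-sites around a CATG core or a close relative of it. RefSeq windows of build GRCm38.p6, from 250 bases before to 50 after an annotated start, were present for 8 of the 9 measured genes and numbered 10, since Cdkn1a and Sesn1 have more than 1 start. The p53 half-site, searched as its 10-letter consensus on both strands with no mismatch, occurred in 5 of these 10 windows, and in 8.356% of all 32851 windows of the same length. A pair of half-sites separated by 0 to 13 bases occurred in 0.07306% of all windows, and among the measured genes only in the window of the first Cdkn1a start. The core letters CATG alone are common and were found in 61.11% of all windows. The bases before the first Cdkn1a start, at chr17:29090729-29090978 on the plus strand, hold the pair at 73 and 51 bases before the start. The 10 bases right after the second half-site depart from the consensus at their first letter only, so they are not marked. The capitals below mark the matched half-sites.
Cdkn1a: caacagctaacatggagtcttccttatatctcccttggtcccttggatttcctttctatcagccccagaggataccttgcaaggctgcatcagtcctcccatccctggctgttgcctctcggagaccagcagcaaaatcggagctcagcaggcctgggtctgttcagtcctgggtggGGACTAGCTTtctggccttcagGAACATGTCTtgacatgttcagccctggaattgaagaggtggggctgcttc
The other matches were lone half-sites, shown within stretches of 40 bases at chr10:117710920-117710959 (minus strand) for Mdm2, chr11:40755447-40755486 (minus strand) for Ccng1, chr10:41887251-41887290 (plus strand) for the second start of Sesn1, and chr6:67037423-67037462 (minus strand) for Gadd45a.
Mdm2: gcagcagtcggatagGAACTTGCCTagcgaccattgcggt
Ccng1: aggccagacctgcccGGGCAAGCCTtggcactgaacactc
Sesn1: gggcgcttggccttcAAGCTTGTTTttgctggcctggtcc
Gadd45a: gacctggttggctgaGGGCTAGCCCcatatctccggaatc
The windows of Phlda3, Btg2 and Eda2r, of the second start of Cdkn1a and of the first start of Sesn1 held no match. A match in letters is a description of the sequence and was not tested as a binding site.

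The values are log2 signals after RMA, a method that corrects background and normalizes the arrays to each other, so a difference of 1 is a doubling. Array medians lay between 4.23 and 4.56. The array number limits the precision of every value. The hepatocyte markers Alb, Apoa1 and Ttr lay at 13.45 or above on every array. In vehicle at 1 day the means of Cdkn1a (3.83 ± 0.14, SD), Phlda3 (4.16 ± 0.13) and Eda2r (2.92 ± 0.06) lay below the lowest array median. These 3 were therefore not shown above background in vehicle, so how large their changes are is uncertain, and the same holds for every other gene said below to lie under that median. The other 6 genes had vehicle means from 5.89 for Btg2 to 7.02 for Ccng1.
Of the arrays, 3 stood apart from their groups, which earlier results on these data had shown: APAP low dose replicate 1, APAP high dose replicate 1 and PQ high dose replicate 1, all at 1 day. They were kept where their labels place them. Some of the results that rest on them are also given without them, and the others only with them. They were picked for their expression values, so the values without them are descriptive.

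Each treated group was set against the same-day vehicle to ask which compound, dose and time raised the p53 targets. At 1 day after high-dose APAP, 5 of the 9 measured targets rose (Cdkn1a, Btg2, Eda2r, Phlda3 and Ccng1) and 0 fell, in a comparison that called 14.8% of all probe sets higher and 15.3% lower. A gene was called when its adjusted p in limma, a linear model fitted to every probe set over all 69 arrays, was under 0.05. Ccng1 alone rose at the medium dose, where 0.173% of probe sets were called higher. No target was called at the low dose (0% of probe sets called) or 2 days after the high dose (4.48%). None was called in any INZ or PQ group, where at most 0.0231% of probe sets were.

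**Figure D1:**
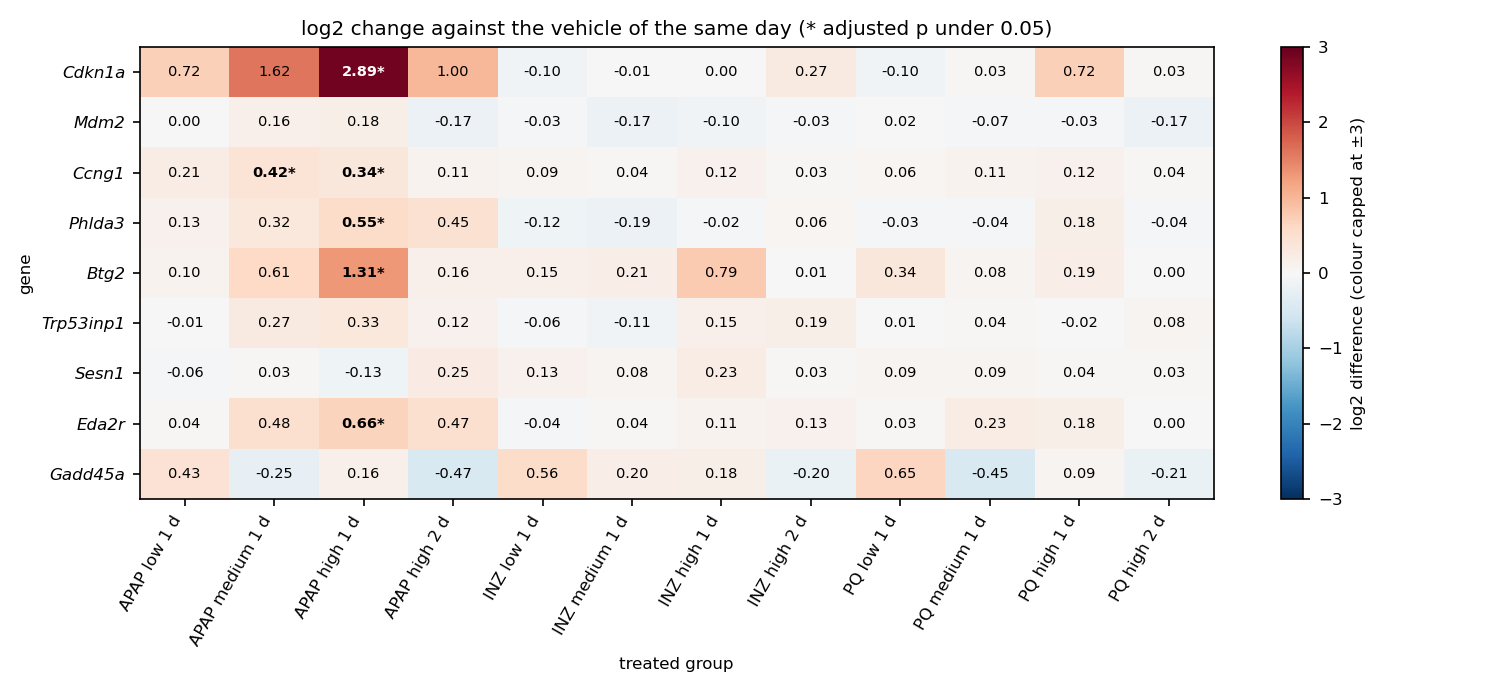
The log2 change against the vehicle of the same day (colour and printed value) is shown for each of the 9 measured p53 targets (vertical axis) in the 12 treated groups (horizontal axis), and an asterisk marks an adjusted p under 0.05. The marked cells are 5 for high-dose APAP at 1 day and Ccng1 at the medium dose, and Cdkn1a has the largest value, 2.89.

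Cdkn1a, which encodes the cell cycle inhibitor p21, had the largest change of the 9. Its log2 signal in the vehicle mice at 1 day was 3.66, 3.99, 3.74, 3.95 and 3.82, and 1 day after the high dose of APAP it was 3.54, 8.13, 8.38, 5.12 and 8.45 in replicates 1 to 5. Replicate 1 lay below every vehicle array and the other 4 above every one, and the group held the highest level of the series. The difference of means was 2.89 (SE 0.66, adjusted p 0.0015) on the log2 scale, with a 95% interval from 1.58 to 4.21. The exact permutation test of these 10 arrays gave an unadjusted p of 0.048, where the smallest possible is 0.0079. A fit of these 10 arrays alone, in which the spread of the treated mice is not averaged with that of the other groups, gave an adjusted p of 0.070 and called none of the 9 targets and 18 probe sets in all. Without the 3 arrays that stood apart the change was 3.69 (adjusted p 1.1e-08). Replicate 1, the lowest array of this group, is among those left out for their expression values, so that p-value is descriptive.

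Btg2, a transcriptional coregulator that restrains the passage from G1 to S phase, followed Cdkn1a in size. Its signal was 5.85, 6.08, 5.94, 5.84 and 5.73 in vehicle, and 5.96, 7.39, 7.99, 6.48 and 8.14 with high-dose APAP at 1 day. Here 4 of 5 treated arrays lay above every vehicle array, and replicate 1 lay within the vehicle range. The rise was 1.31 (SE 0.33, adjusted p 0.0030), or 2.47-fold. Ccng1, or cyclin G1, recruits a phosphatase that acts on Mdm2, and its change was small. It stood at 7.03, 7.03, 7.07, 7.02 and 6.95 in vehicle and at 7.01, 7.59, 7.28, 7.34 and 7.56 at the high dose. Again 4 of 5 treated arrays lay above all vehicle arrays, and the rise was 0.34 (SE 0.09, adjusted p 0.0053), or 1.26-fold. Both rises stayed below an adjusted p of 0.05 when any 1 array of the groups was left out.

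Eda2r, a death receptor of the tumour necrosis factor family that binds ectodysplasin A2, was the dimmest target. Its signal was 2.93, 2.99, 2.96, 2.83 and 2.88 in vehicle and 2.93, 4.24, 4.08, 3.06 and 3.57 with high-dose APAP at 1 day. The difference of 0.66 (SE 0.16, adjusted p 0.0026) came with 4 of 5 arrays above every vehicle array, but the treated mean of 3.58 also lay below the lowest array median. Phlda3 encodes a small protein that competes with Akt for membrane lipids and so dampens survival signalling. It measured 3.96, 4.28, 4.28, 4.11 and 4.14 in vehicle and 3.89, 5.38, 5.19, 4.20 and 4.88 at the high dose, a change of 0.55 (SE 0.20, adjusted p 0.030). In Phlda3 the groups overlapped more, with 3 arrays above and 1 below the whole vehicle group. Leaving out APAP high dose replicate 2, 3 or 5, or else vehicle replicate 1 or 4, ended its call, with changes down to 0.39 and adjusted p up to 0.17.

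The other 4 targets were not called at this dose and day. Mdm2, the ligase that degrades p53, had signals of 5.97, 6.10, 6.23, 5.93 and 6.07 in vehicle and 6.00, 6.46, 6.32, 6.10 and 6.33 at the high dose. The groups overlapped, the difference was 0.18 (SE 0.10, adjusted p 0.18), and its 95% interval ran from -0.03 to 0.39. Trp53inp1, a nuclear protein that promotes p53 phosphorylation and autophagy, had 6.49, 6.64, 6.79, 6.26 and 6.56 in vehicle and 6.39, 6.61, 7.10, 7.12 and 7.15 at the high dose. Its difference of 0.33 (SE 0.13) had an adjusted p of 0.052, with 3 arrays above every vehicle array. Gadd45a, which binds PCNA and p21 and takes part in the arrest at G2, varied widely within groups. It ran from 6.06 to 7.94 at the high dose and from 5.75 to 7.62 in vehicle, a difference of 0.16 (adjusted p 0.76). Sesn1, or sestrin 1, was the only target with a lower mean at this dose and day. It measured 7.11, 7.06, 6.96, 6.86 and 6.93 in vehicle and 6.96, 6.81, 6.87, 6.82 and 6.83 in treated mice, a difference of -0.13 (SE 0.08, adjusted p 0.25).
The median change of the 9 targets was 0.34, beside -0.05 over all probe sets, and 8 of the 9 changes were above 0.

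**Figure D2:**
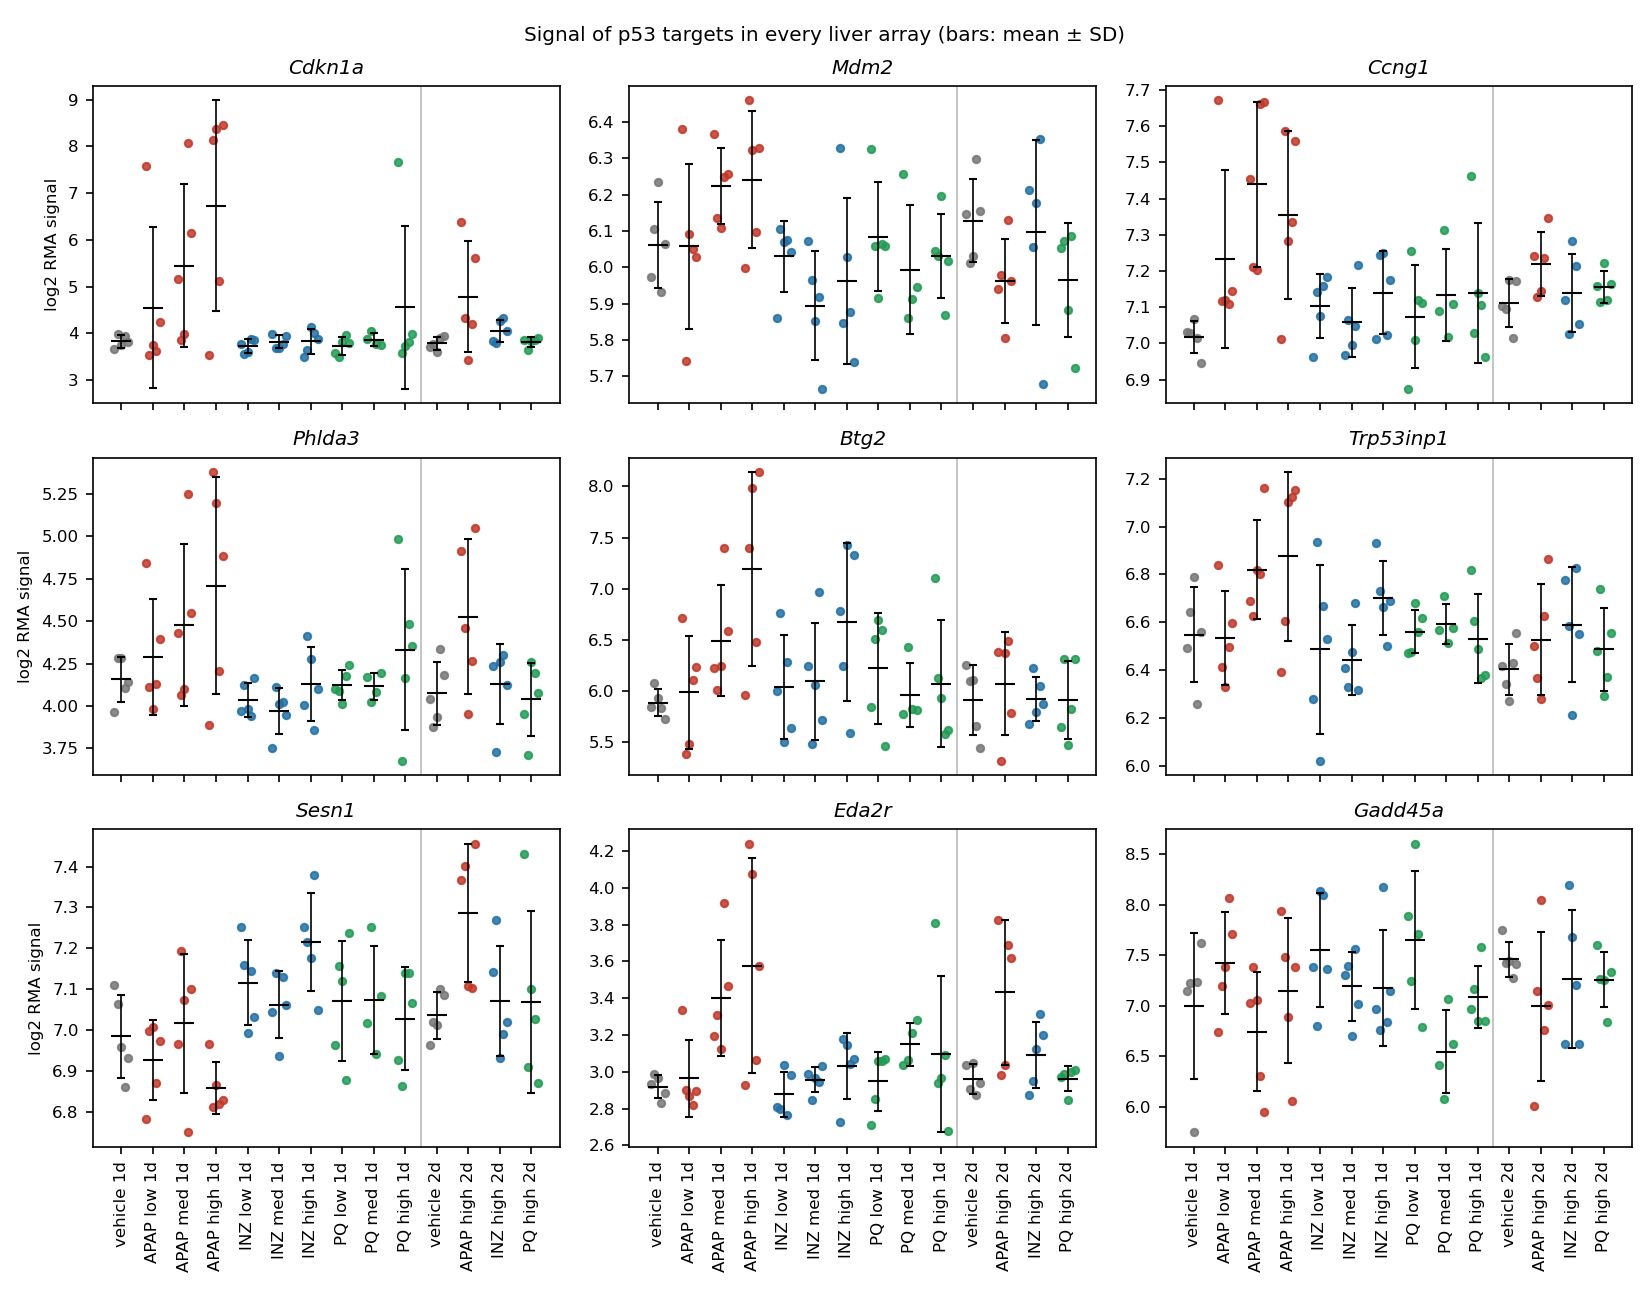
Each panel plots the log2 RMA signal of a p53 target (vertical axis, its own scale) in every array (points) of the 14 groups (horizontal axis), with bars for the mean ± SD and a grey line between 1 and 2 days. Cdkn1a reaches 8.45 with high-dose APAP at 1 day, and single arrays of the low dose of APAP (7.59) and the high dose of PQ (7.67) stand well above the other arrays of their groups.

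The dose series of APAP at 1 day asks how far down the doses the rise extended. Ccng1 was raised in each mouse of the medium dose, at 7.45, 7.21, 7.20, 7.66 and 7.67. These 5 arrays lay above every vehicle array, by a mean of 0.42 (SE 0.09, adjusted p 0.022), as 1.99% of all probe sets did. The call was lost without APAP medium dose replicate 4 or 5 or vehicle replicate 2, 4 or 5, with adjusted p up to 0.14 and changes from 0.36 to 0.48. At the low dose Ccng1 measured 7.67, 7.12, 7.12, 7.11 and 7.14. These also lay above every vehicle array of that day, as 1.13% of probe sets did. The difference of 0.21 had an exact permutation p of 0.0079, the smallest that 5 against 5 allow, and an adjusted p of 0.76 in limma. Replicate 1, which stood apart, lay 0.65 above the vehicle mean, and replicates 2 to 5 lay 0.09 to 0.13 above it. Replicates 2 to 5 lay within the range of the 2-day vehicle arrays, 7.02 to 7.18. The Ccng1 mean was also 7.14 at 1 day in the high dose groups of INZ and of PQ, so so small an offset was not particular to APAP.
Cdkn1a at the medium dose measured 5.16, 3.85, 3.99, 8.08 and 6.16, with 3 of 5 arrays above every vehicle array. Its difference of 1.62 (SE 0.66) had an adjusted p of 0.20. Eda2r at that dose, at 3.19, 3.31, 3.12, 3.92 and 3.46, lay above every vehicle array in all 5 mice, with a difference of 0.48 (SE 0.16, adjusted p 0.15). Btg2 differed by 0.61 (adjusted p 0.31) and was above the vehicle range in 4 of 5 mice. Without the 3 arrays that stood apart, none of which is in this group, the shared spread was smaller and Cdkn1a (adjusted p 0.021) and Eda2r (adjusted p 0.026) were called beside Ccng1, among 1007 probe sets called in place of 42.
The trend over vehicle and the 3 doses, linear in mg/kg, was called for 6 targets, all rising, where 14.6% of probe sets were called rising. The fitted change from vehicle to the high dose was 2.74 for Cdkn1a (SE 0.63, adjusted p 0.0021), 1.21 for Btg2 (SE 0.32, adjusted p 0.0046) and 0.66 for Eda2r (SE 0.16, adjusted p 0.0024). It was 0.53 for Phlda3 (adjusted p 0.032), 0.39 for Ccng1 (adjusted p 0.0019) and 0.34 for Trp53inp1 (adjusted p 0.036). The trend calls of Phlda3 and Trp53inp1 were each lost in 6 of 20 fits that left out 1 array. For Phlda3 these were the fits lacking replicate 2, 3 or 5 of the high dose, or replicate 1, 4 or 5 of vehicle. For Trp53inp1 they were those lacking replicate 3, 4 or 5 of the high dose, or the same vehicle replicates, and its call was also lost after centring the arrays or a repeat of the quantile normalization. The trend of Mdm2 was 0.19 (SE 0.10, adjusted p 0.14). Sesn1 (-0.09) and Gadd45a (0.03) were near 0.

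The mice of an APAP group differed widely among themselves. At the high dose after 1 day, replicates 2 to 5 had 6, 7, 5 and 7 of the 9 targets above every vehicle array of that day, and replicate 1 had 1. Over all probe sets the shares above every vehicle array were 28.8%, 28.7%, 22%, 29% and, for replicate 1, 21.8%. Replicate 1 had the lowest signal of its group in 7 of the 9 targets. In the low dose group the pattern was turned around: replicate 1 had 7 targets above every vehicle array, as did 28.9% of all probe sets, and the highest signal of its group in 7 targets. Its Cdkn1a signal was 7.59, where the other 4 mice of that group had 3.54 to 4.24. In the medium dose group 6, 3, 4, 7 and 7 targets lay above every vehicle array, beside 26.9%, 19.5%, 20.2%, 30% and 22.5% of all probe sets, and Cdkn1a was highest in replicate 4 at 8.08.
Sesn1 was lower than every vehicle array in low dose replicate 1 (6.78), in medium dose replicate 4 (6.75) and in replicates 2, 4 and 5 of the high dose. The Cdkn1a signals of those 3 high dose mice were 8.13, 5.12 and 8.45, and in replicate 3, where Cdkn1a stood at 8.38, Sesn1 (6.87) lay within the vehicle range. The within-group SD over the series was 1.07 for Cdkn1a, 0.54 for Btg2 and 0.55 for Gadd45a, and 0.13 for Sesn1, the smallest of the 9.

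**Figure D3:**
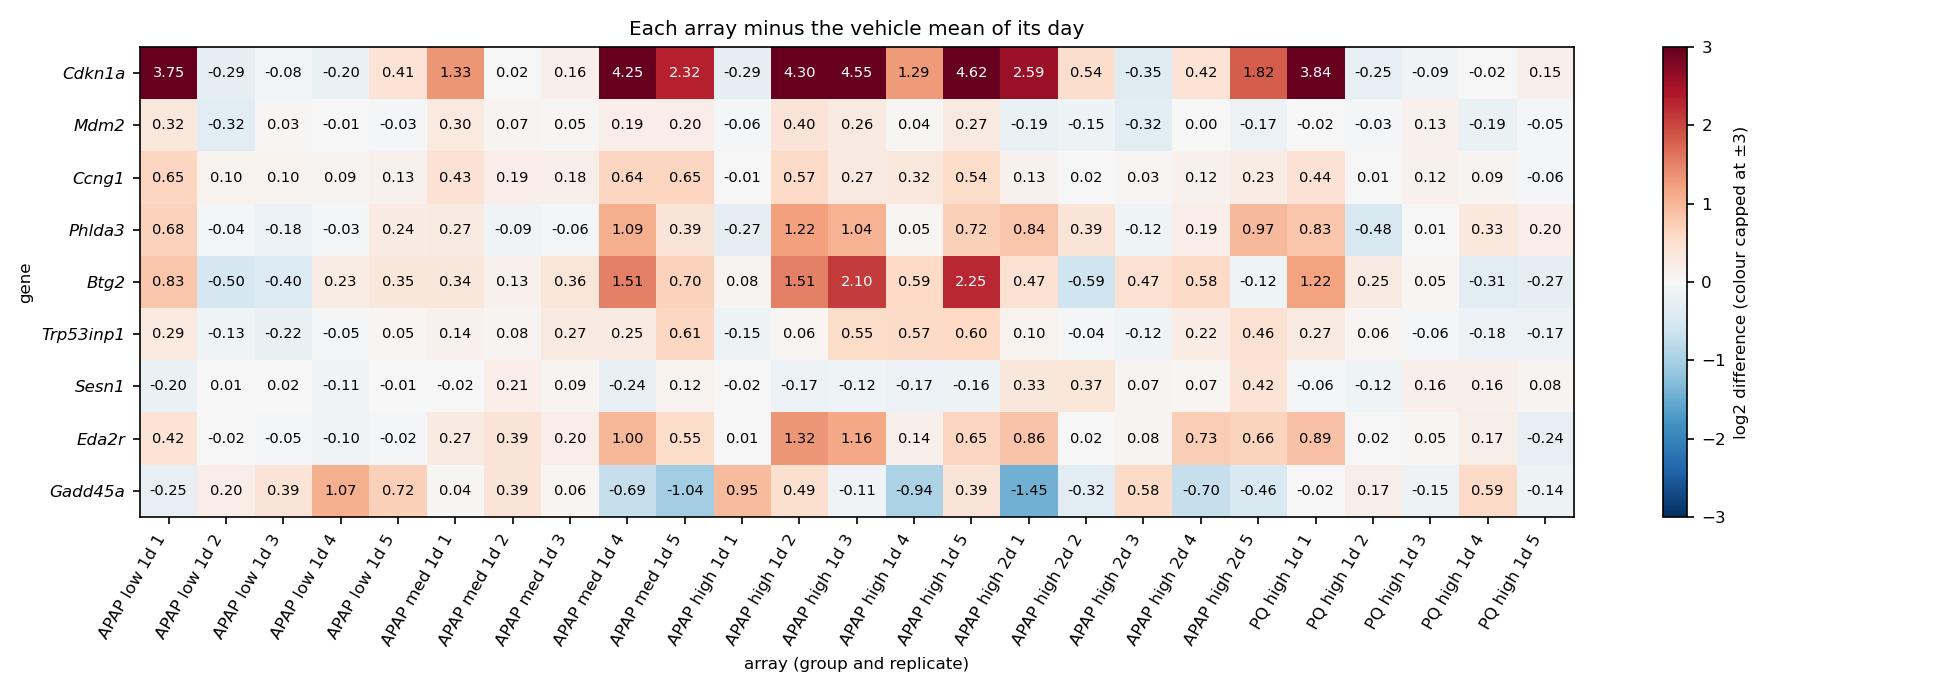
The difference of each array from the vehicle mean of its day in log2 units (colour and printed value) is shown for the 9 p53 targets (vertical axis) in each array (horizontal axis) of the 4 APAP groups and of the high dose of PQ after 1 day. High values of Cdkn1a, Btg2, Phlda3 and Eda2r fall in the same columns, such as APAP high dose replicates 2, 3 and 5 (4.30, 4.55 and 4.62 for Cdkn1a), and replicate 1 of that group has -0.29.

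Markers of several other cell types moved in the same arrays. Among the monocyte and macrophage markers, 11 of 14 measured rose 1 day after high-dose APAP, and their summed signal, on the log2 scale, was 12.67, 12.61, 11.88 and 12.85 in replicates 2 to 5 and 10.46 in replicate 1. The vehicle arrays lay between 10.65 and 11.02. APAP low dose replicate 1 stood at 12.61 and the other low dose arrays between 10.62 and 10.78. Of 10 neutrophil markers 6 rose, with summed signals from 7.38 to 11.60 at the high dose and from 7.36 to 7.73 in vehicle. The summed signal of 9 hepatocyte markers ran from 16.47 to 16.81 at the high dose and from 16.74 to 16.80 in vehicle, with 1 marker higher (Fgb, 0.21) and 1 lower (Apoa2, -0.15). Of 10 Kupffer cell markers, 1 rose (Marco, 2.63) and 1 fell (Clec4f, -0.46), and of 12 T and NK cell markers 0 were called, with summed signals from 6.99 to 7.42 beside 7.23 to 7.28 in vehicle. Of 5 B cell markers 0 were called.
Of 10 markers of stellate cells and matrix, 5 rose, led by Timp1 (adjusted p 0.0016, vehicle mean below the lowest array median) and Acta2 (1.86), and Lrat fell by 0.70. Their summed signal was 12.10, 12.05 and 12.05 in high dose replicates 2, 3 and 5, 11.42 and 11.55 in replicates 1 and 4, and 11.31 to 11.38 in vehicle. Of 5 cholangiocyte markers Sox9 alone rose (1.84, vehicle mean below the lowest array median), and the summed signal was 7.28, 7.23 and 7.30 in replicates 2, 3 and 5 beside 5.94 to 6.33 in vehicle. Of 9 endothelial markers 3 rose, led by Lyve1 (1.42) and Pecam1 (0.87), and Clec4g fell by 0.41. Of 3 erythroid markers Car1 fell by 1.95 and Alas2 by 1.13, with summed signals of 7.99, 7.73 and 7.21 in replicates 2, 3 and 5 and 9.32 to 9.55 in vehicle. In whole liver, a change in the number of cells of a type and a change in RNA per cell cannot be told apart, and the part of these cells in the signals of the p53 targets was not tested.

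By 2 days after high-dose APAP, no target was called. Cdkn1a measured 6.38, 4.32, 3.43, 4.20 and 5.60 beside 3.70, 3.77, 3.60, 3.90 and 3.94 in vehicle, 4 of the 5 above every vehicle array, with a difference of 1.00 (SE 0.66, adjusted p 0.42). Eda2r, at 3.82, 2.98, 3.04, 3.69 and 3.62 beside 2.87 to 3.05, differed by 0.47 (SE 0.16, adjusted p 0.085), and Phlda3 by 0.45 (adjusted p 0.20). Sesn1 had the smallest adjusted p at this time. Its signal was 7.37, 7.40, 7.11, 7.10 and 7.45 in treated mice and 6.96, 7.02, 7.01, 7.10 and 7.09 in vehicle, without overlap, as in 1.85% of all probe sets. The difference was 0.25 (SE 0.08, adjusted p 0.068). Mdm2 lay lower than every vehicle array in 4 of 5 mice, with a difference of -0.17 (adjusted p 0.39). Without the 3 arrays that stood apart, none of which is of this day, Eda2r (adjusted p 0.021) and Sesn1 were called. Without APAP high dose replicate 2 at 2 days Eda2r was called, without replicate 3 both, and without replicate 4 Sesn1. How many of all probe sets were called in these fits is not given here, so these calls are no result about the targets alone.
The effect at 2 days minus the effect at 1 day was not called for any target, where 2.81% of probe sets were called. It was -1.89 for Cdkn1a (SE 0.93, unadjusted p 0.047, adjusted p 0.22), -1.15 for Btg2 (SE 0.47, adjusted p 0.14) and -0.35 for Mdm2 (SE 0.15, adjusted p 0.15). For Sesn1 it was 0.38 (SE 0.12, adjusted p 0.059). The value was below 0 for 8 of the 9 targets, with a median of -0.23 beside -0.004 over all probe sets. The share of all probe sets below 0 is not given here. Without the 3 arrays that stood apart 5 targets passed the threshold, among 3414 probe sets. The value was -2.69 for Cdkn1a (adjusted p 0.0018), -1.45 for Btg2 (0.011), -0.41 for Mdm2 (0.036), -0.32 for Ccng1 (0.027) and 0.40 for Sesn1 (0.012). These arrays were picked for their expression values, and APAP high dose replicate 1 at 1 day was the lowest of its group in 7 of the 9 targets. The values without them are therefore descriptive. Leaving out only APAP high dose replicate 1 at 1 day gave calls for Cdkn1a, Btg2 and Sesn1, and leaving out its replicate 4, or replicate 3 or 4 at 2 days, gave a call for Sesn1. For these fits without 1 array the number of all probe sets called is not given, so the calls are no result about the targets alone. The vehicle groups of the 2 days did not differ by a call in any target, with differences from -0.14 to 0.47.

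INZ left Cdkn1a within a narrow band. Over its 4 groups the signal lay between 3.49 and 4.33, and at the high dose after 1 day it was 3.49, 3.64, 4.13, 4.01 and 3.87, overlapping the vehicle range at both ends. No target was called in any INZ group, where the share of probe sets called was 0% in 3 groups and 0.0231% at the high dose after 1 day. In the fit of all arrays 2 targets had an unadjusted p under 0.05, both at the high dose after 1 day, where 4.8% of all probe sets passed that limit. Btg2 there measured 6.78, 6.24, 7.43, 5.59 and 7.33, with 4 arrays above and 1 below the vehicle range, and differed by 0.79 (SE 0.33, unadjusted p 0.020, adjusted p 0.94). Sesn1 measured 7.25, 7.22, 7.18, 7.38 and 7.05, with 4 of 5 arrays above the vehicle range, and differed by 0.23 (SE 0.08, unadjusted p 0.0077, adjusted p 0.86). A limma fit of the high dose and vehicle arrays of that day alone also called 0 probe sets, with adjusted p of 0.48 for Btg2 and 0.40 for Sesn1. For Cdkn1a the 95% interval of the difference at the high dose after 1 day was -1.32 to 1.31 in the fit of all arrays and -0.25 to 0.25 in the fit of the 2 groups alone. At 2 days Cdkn1a measured 3.84, 3.79, 4.26, 4.33 and 4.06 with the high dose, beside 3.60 to 3.94 in vehicle. The limma fit of those 2 groups alone gave a difference of 0.27 (95% interval 0.03 to 0.51, unadjusted p 0.030, adjusted p 0.50). Both means lay below the lowest array median.
PQ gave no call in its 4 groups, where 0% of probe sets were called. In the fit of all arrays no target reached an unadjusted p under 0.05, where 1.86% to 6.25% of all probe sets did. At the high dose after 1 day Cdkn1a measured 7.67 in replicate 1 and 3.58, 3.74, 3.81 and 3.98 in the others. In that mouse 6 of 9 targets lay above every vehicle array, among them Btg2 (7.10), Phlda3 (4.99), Eda2r (3.81) and Ccng1 (7.46), and 29.3% of all probe sets lay above and 38.7% below every vehicle array. Its summed signals of monocyte and macrophage markers (12.42) and of neutrophil markers (11.02) were the highest of its group, as were those of stellate and matrix (11.82) and cholangiocyte markers (7.25), and that of erythroid markers (7.32) was the lowest. The part of these cells was not tested. The other 4 mice of the group had 1, 2, 4 and 1 targets above the vehicle range, beside 16%, 16.9%, 19.6% and 18.9% of all probe sets. At the medium dose of PQ the 4 Eda2r values of 3.04, 3.06, 3.21 and 3.28 lay above every vehicle array of that day, as 0.821% of probe sets did. The highest vehicle array of 2 days had 3.05. The difference was 0.23 (SE 0.17, exact permutation p 0.0079, the smallest possible). It was not called, with a limma adjusted p of 0.9999 in the fit of all arrays and 0.92 in the fit of the 2 groups alone.
No target was called in the dose trend of INZ (0.00578% of probe sets called) or of PQ (0%), nor in the 2-day minus 1-day effect of either compound (0% each).

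The high doses of the compounds were also set against each other, although 300 mg/kg of APAP, 88 mg/kg of INZ and 50 mg/kg of PQ are not matched doses. At 1 day, APAP minus INZ was called higher for 4 targets, where 12.8% of probe sets were, and lower for 1, where 11.9% were. The 4 were Cdkn1a (2.90, SE 0.66, adjusted p 0.0015), Phlda3 (0.58, adjusted p 0.027), Eda2r (0.54, adjusted p 0.011) and Mdm2 (0.28, adjusted p 0.041), and the lower one was Sesn1 (-0.36, SE 0.08, adjusted p 0.0018). In both directions together, 24.7% of probe sets were called. Sesn1 separated the 2 groups without overlap, with 6.81 to 6.96 after APAP and 7.05 to 7.38 after INZ, as 2.52% of probe sets did in this direction. The calls of Phlda3, Mdm2 and, without APAP high dose replicate 2 or 3, Eda2r were lost in fits without 1 array, down to 2 calls without either of those replicates and 3 without APAP replicate 5 or INZ replicate 4. Cdkn1a and Sesn1 were called in each of these fits. Btg2 had means of 7.19 ± 0.95 after APAP and 6.68 ± 0.77 after INZ, and the difference of 0.52 was not called (adjusted p 0.26).
APAP minus PQ at 1 day gave no call among the targets, where 0.387% of probe sets were called, and 7 targets had an unadjusted p under 0.05, as did 24.8% of all probe sets. Cdkn1a differed by 2.17 (SE 0.66, adjusted p 0.056) and Btg2 by 1.12 (SE 0.33, adjusted p 0.053). Without PQ high dose replicate 1 there were 6 calls, among 4449 probe sets, with Cdkn1a at 2.95 (adjusted p 0.00077). Without APAP high dose replicate 1 there were also 6, and without its replicate 4 there were 3. Replicate 1 of either group was picked for its expression values, so the calls without it are descriptive. At 2 days no target differed by a call between APAP and INZ or between APAP and PQ, where 3.83% and 3.53% of probe sets were called. Without APAP high dose replicate 2 or 3 at 2 days Eda2r was called against PQ, and without PQ high dose replicate 1 at 2 days Sesn1 was. Except where stated, the number of all probe sets called without an array is not given, so such calls are no result about the targets alone.

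Other genes of the pathway were read from lists drawn from general knowledge, to place the 9 targets beside their network. Of 44 other measured p53 targets, 8 rose and 4 fell 1 day after high-dose APAP, with a median change of -0.02. Those that rose included Ddit4, an inhibitor of mTORC1, by 1.58 (SE 0.35, adjusted p 0.0012), and Pmaip1 (Noxa), a BH3-only protein of apoptosis, by 1.00 (SE 0.23, adjusted p 0.0014). Apaf1, the scaffold of the apoptosome, rose by 0.72, Epha2, a receptor kinase, by 0.57, and Zmat3, an RNA-binding protein, by 0.42. Pmaip1 (3.06) and Apaf1 (3.55) had vehicle means below the lowest array median. Those that fell were Dcxr, a carbonyl reductase, by 0.97 (SE 0.24, adjusted p 0.0022), and genes of DNA repair: Ercc5 by 0.40, Ddb2 by 0.30 and Rev3l, below that median in both groups. The share called in either direction, 12 of 44, can be set against 30.1% of all probe sets.
Among 16 regulators of p53, Usp7, a deubiquitinase of p53 and Mdm2, rose by 0.25 (adjusted p 0.0077), and Atm, the kinase that senses DNA breaks, fell by 0.26 (adjusted p 0.032). Paralogs of the targets were measured for 20 genes, of which 4 rose and 0 fell, beside the 14.8% and 15.3% of all probe sets. Gadd45b rose from 3.67 ± 0.12, below the lowest array median, to 5.05 ± 0.95 (adjusted p 0.00071), and Trp53inp2, an autophagy factor, from 9.84 ± 0.07 to 10.91 ± 0.61 (1.07, adjusted p 0.00084). Bok rose by 0.50, and Bak1 was called higher with both means below that median; both are relatives of Bax. The difference between Gadd45a and Gadd45b was not tested.
p21 acts on cyclin and kinase complexes, and of 17 genes of its partners and of proliferation 4 rose and 0 fell at 1 day, again beside 14.8% and 15.3% of all probe sets: the G1 cyclins Ccnd1 (0.78, adjusted p 0.022) and Ccnd2 (0.48, adjusted p 0.00094), their kinase Cdk4 (0.49, adjusted p 0.0020) and the pocket protein Rbl1 (adjusted p 0.0050, both means below the lowest array median). At 2 days 8 of the 17 rose and 0 fell, where 2.85% of probe sets were called higher. They included the mitotic genes Ccnb2 (2.68, SE 0.48, adjusted p 0.00018), Cdc20 (2.62), Birc5 (2.56), Top2a (2.29), Ccna2 (2.26) and Cdk1 (1.85). The vehicle means of Ccnb2 (3.32), Birc5 (3.74), Top2a (3.42) and Ccna2 (3.98) lay below the lowest array median, so the sizes of these changes and their order are uncertain. In the same comparison 9 of 14 monocyte and macrophage markers rose, among them Lgals3 (2.76) and Gpnmb (2.46, vehicle mean below the lowest array median). Their summed signals ran from 11.35 to 12.99 beside 10.34 to 10.89 in vehicle. Of the 10 stellate and matrix markers 5 rose, led by Col1a2 (3.23) and Col3a1 (1.98), with summed signals from 11.60 to 13.12 beside 11.14 to 11.33. The part of these cells in the proliferation genes was not tested. The 2-day minus 1-day effect was called higher for each of these 6 genes, from 2.05 for Cdk1 to 3.12 for Ccnb2, and lower for Ccnd2 (-0.51, adjusted p 0.040). Of the other p53 targets, Ckap2, a spindle protein, rose by 2.09 at 2 days (adjusted p 8.8e-05; vehicle mean below the lowest array median), and Casp1, an inflammatory caspase, by 0.52 (adjusted p 0.024). No gene of these 4 lists was called at the low or medium dose of APAP or in any INZ or PQ group.

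**Figure D4:**
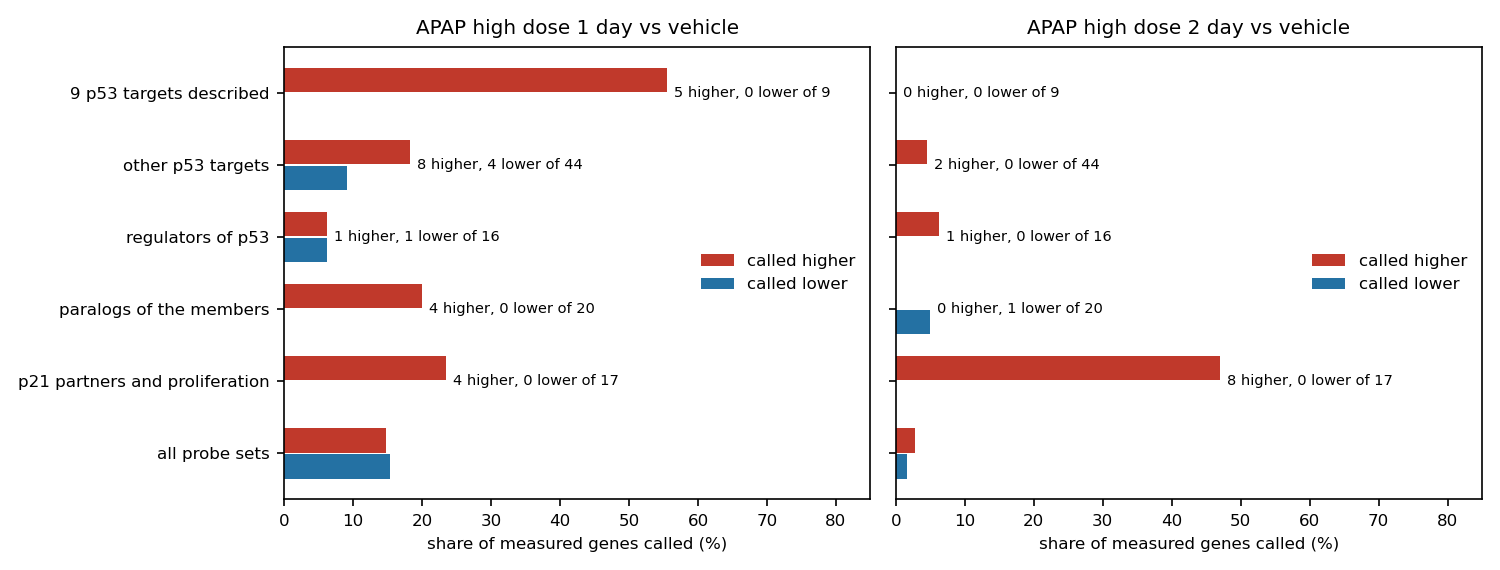
Bars give the share of measured genes (horizontal axis, %) called higher (red) and lower (blue) for high-dose APAP at 1 day (left) and 2 days (right), for the described p53 targets, for related gene lists and for all probe sets. At 1 day 5 of the 9 targets are called higher, beside 14.8% of all probe sets, and at 2 days 8 of 17 genes of p21 partners and proliferation are, beside 2.85%.

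Genes with the pattern most like each called target were found by the root mean square difference of their 12 log2 changes against vehicle, which share the vehicle arrays of each day. The nearest to Cdkn1a was Mmp12, a macrophage elastase (0.15 log2 units; changes of 2.67 at 1 day and 1.36 2 days after high-dose APAP). Next were Ccl2, a chemokine that attracts monocytes (0.15, changes of 3.01 and 0.77), and Armcx4 (0.16, changes of 2.74 and 1.00). The vehicle mean of Ccl2 at 1 day lay below the lowest array median. Eda2r was nearest to Arhgap25 (0.06), Treml4 (0.07) and Slfn2 (0.08), and Btg2 to Acsl3 (0.19), Prickle2 (0.19) and Hcls1 (0.20). Phlda3 was nearest to Myef2 (0.05), Tmem65 (0.07) and Gla (0.08), and Ccng1 to Pms2 (0.05), S100a16 (0.06) and Edem1 (0.06). None of the 9 targets was among the 3 nearest genes of these 5. This measure compares the sizes of the changes, so targets whose changes differ in size lie far apart in it. It therefore cannot show whether the targets rose and fell in the same groups.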

How the data were processed

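Total RNA of mouse liver was labelled with biotin and hybridised to Affymetrix arrays, 1 array per mouse. The deposited table holds 1 log2 value per probe set and array, between 1.87 and 14.34, made by the authors with RMA per the submitters' processing notes. The version of RMA and the array's probe mapping are not given in the sources used here. The 69 columns were assigned to 14 groups by the labels. Replicates were numbered in the order of the records, and the labels do not say whether mice were housed or processed together.

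The p53 targets and all gene lists were chosen with earlier results of these data known. Group means were fitted with limma 3.58.1 in R 4.3.3 over all 69 arrays (55 residual and 3.5 prior degrees of freedom), and 23 comparisons were tested, two-sided, with Benjamini-Hochberg adjustment over 17306 probe sets, and an adjusted p under 0.05 was the threshold of a call. The fit shares 1 spread per gene over all groups, so adjusted p-values are too small where a group, such as the high dose of APAP, varies more than that spread. The trend is linear in mg/kg. Exact permutation tests compared single genes between 2 groups. Summed signals of markers are log2 of the sum of their linear signals. All measured targets were tested in every comparison, but not every one is described in each. From each other list at most 6 called genes per direction were named, and from the cell type lists at most 2 per direction. They were not always those with the largest change. For each called target the 3 nearest genes by pattern were named. The fit was tested on simulated data. Of the probe sets, 842 had no symbol. The figures used Python 3.11.15, numpy 2.4.6 and matplotlib 3.10.9. Alternatives covered normalization, dim probe sets, array weights, the groups in the fit, the prior, the numbers in the array titles (97 to 208, meaning not stated), each array left out, the 3 arrays that stood apart and pooled vehicles.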

Additional observations from a re-analysis of the deposited data

Results flagged for a closer look

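Values far from the rest of their group were found in 9 combinations of a target and a group, where chance flags about 1 in 20 combinations and 6.3 would be expected. APAP low dose replicate 1 accounted for 3 of them: Cdkn1a at 7.59 (next 4.24), Ccng1 at 7.67 (next 7.14) and Eda2r at 3.34 (next 2.90). PQ high dose replicate 1 at 1 day had Cdkn1a at 7.67, where the next array of its group had 3.98. The other 5 were Mdm2 at 5.86 in INZ low dose replicate 1, Btg2 at 6.43 in PQ medium dose replicate 2, Eda2r at 2.85 in PQ high dose replicate 3 at 2 days, and Gadd45a at 8.17 in INZ high dose replicate 3 at 1 day and at 5.75 in vehicle replicate 3 at 1 day.

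Sesn1 stood out for opposite signs at the 2 times after the high dose of APAP, -0.13 at 1 day and 0.25 at 2 days. The difference of 0.38 had an adjusted p of 0.059 and was not called.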

How the results depend on the processing

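No count reversed a direction, and in each INZ and PQ group against vehicle, and at the low dose of APAP, 0 targets were called under every alternative run. No paired analysis was possible because each mouse gave 1 array and the labels number no replicates across groups. Fitting only the groups compared lowered the number of called targets to 0 for the medium dose of APAP (from 1), the high dose at 1 day (from 5), the APAP trend (from 6) and APAP minus INZ at 1 day (from 5); this fit has fewer samples. Array weights gave 4 calls at 2 days, 6 for the time difference, 8 for APAP minus INZ and 8 for APAP minus PQ at 1 day, and 2 and 4 at 2 days. Without the 11 arrays with the highest title numbers there were 3 calls at the medium dose, 3 for the time difference, and 8 each for APAP minus INZ and minus PQ at 1 day. Without the 3 arrays that stood apart there were 3 at the medium dose, 2 at 2 days, 5 for the time difference, and 7 and 1 for APAP minus PQ at 1 and 2 days. Pooled vehicles gave 2 calls at 2 days. A repeat of the quantile normalization gave 1 at 2 days and 1 for the time difference, centring gave 1 for the time difference, and leaving out dim probe sets gave 1 for the time difference and 2 for APAP minus PQ at 1 day. The cause of these shifts was not tested. The number of all probe sets called also moved between settings, for instance without the 3 arrays that stood apart, and is not given here. These counts are therefore no result about the targets alone. Leaving out 1 array gave 0 to 1 calls at the medium dose, 4 to 6 at the high dose at 1 day, 0 to 2 at 2 days, 4 to 6 for the trend, 0 to 3 for the time difference, 2 to 7 for APAP minus INZ at 1 day, 0 to 6 for APAP minus PQ at 1 day and 0 to 1 at 2 days. For single targets, 330 values kept direction and call and 67 kept only direction. Low signal limits Cdkn1a, Phlda3 and Eda2r, whose vehicle means lie below the lowest array median and were not shown above background.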
